A study of Mus musculus with 78 samples.

Results

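Potassium channel genes were taken as every gene whose symbol begins with Kcn, leaving out Kcnj8 and Kcnj10. They include pore subunits, accessory subunits and 4 other genes: Kcnrg and the opposite-strand genes Kcnd3os, Kcnmb4os1 and Kcnmb4os2. Of 92 probe sets with such a single symbol, a gene kept only its brightest on average, which gave 90 of the 19301 genes on the array. Of these 90 genes, 78 were among the 15102 genes bright enough to be tested. They were measured in fluorescent cells sorted from the retina of adult mice of 22 transgenic lines, 200 cells per sample after a papain digestion of 15 min. Every line gave 3 biological replicates on 3 arrays, except the lines b2 and Arc with 3 sets each (9 arrays), for 26 sets and 78 arrays in all.

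The 3 photoreceptor lines (15 arrays) were b2 (b2-Cre × Rosa26-LSL-RFP, rods), Chrnb4 (Tg(Chrnb4-EGFP)1Gsat, cones) and d4 (d4-Cre × Rosa26-LSL-RFP, cones). The horizontal cell line was Gja10 (Gja10-Cre × Rosa26-LSL-RFP, 3 arrays). The 4 bipolar lines (12 arrays) were mGluR6 (mGlur6-Cre × Rosa26-LSL-RFP), Kcng4 (Kcng4-CreERT2 × Rosa26-LSL-RFP), Pcp2 (Pcp2-EGFP) and Lhx4 (Lhx4-EGFP). The 9 amacrine lines (33 arrays) were Arc, Igfbp2, Rgs5, Chrna3, Fam81a, Fbxo32 and Ier5, each carrying an EGFP transgene named for its driver gene, and Crh-Cre and Chat-Cre (here ChAT), each crossed to Rosa26-LSL-RFP. The 4 ganglion cell lines (12 arrays) were PV (PV-Cre × ThyStopY), Drd4 (Drd4-EGFP, although the labels give RFP as its marker protein), Grik4 (Grik4-Cre × Rosa26-LSL-RFP) and Opn4 (mOpn4-Cre × Rosa26-LSL-RFP). The microglia line was Csf2rb2 (Csf2rb2-EGFP, 3 arrays). All animals were by the labels of mixed background, an FVB/N-Swiss Webster hybrid with C57BL/6J, and some lines carried a recessive photoreceptor degeneration mutation before backcrossing. The sorted cells of a line are therefore those in which its driver was active, not a type chosen by its markers.

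The lines were checked against marker genes. The summed intensity of 5 microglia markers was 3215.9 in Csf2rb2 and 30.9 to 330.9 elsewhere, the ganglion list summed to 2066.6 to 2391.6 in its 4 lines and at most 563.1 elsewhere, and the bipolar list (5 of 6 markers measured) to 863.8 to 2228.6 in its 4 lines and at most 423.8 elsewhere, in Drd4. Rod markers summed to 2980.1 in b2 and cone markers to 9632.4 in Chrnb4 and 10705.2 in d4, and the horizontal list to 766.6 in Gja10. Markers of other cells were present in some sorts: pigment epithelium markers summed to 878 and endothelial markers to 705.6 in Grik4, and Müller glia markers to 1844.8 in Drd4, 979.1 in Grik4 and 941.4 in Crh, with Rlbp1 and Glul both high there. The Müller list summed to 1201.2 in Gja10 as well, mostly Vim (1046), with Rlbp1 at 12.4, and the rod list to 847.1 in Crh, nearly all Gnat1 (840), with Nrl at 4.68 and Pde6b at 1.91. The lowest correlations between arrays of a set were in Crh (0.707), Drd4 (0.788) and Chrna3 (0.791), closely followed by Lhx4 (0.805) and Chrnb4 (0.808). Crh, Drd4 and Chrna3 are the lines of low array correlation named below. By the labels 24 arrays belong to batch 1, 12 to batch 2 and 33 to batch 3, and 9 have no batch, so that most classes span batches but most lines lie in 1.

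Potassium channels set the resting potential of a neuron and end its depolarizations. Voltage-gated (Kv) channels are tetramers of pore subunits, and silent Kv subunits form no channel of their own but join Kv2 subunits. Calcium-activated channels couple potassium flow to calcium entry, inward rectifiers and 2-pore channels carry current near rest, and accessory subunits (Kcne, Kcnab, Kcnip and Kcnmb) change how the pores open or reach the membrane. In the retina, photoreceptors and bipolar cells signal with graded potentials whereas ganglion cells fire action potentials, and each class is known for its own set of potassium currents.

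Values are deposited intensities, given per array in replicate order, and a mean is the geometric mean over the arrays of a line or the lines of a class. Probe sets differ in brightness, so levels are set side by side only within a gene. Differences are on the log2 scale. A gene was called where the difference was at least 1 and the adjusted p below 0.05 over all 15102 genes in limma. Class comparisons subtracted from the mean over the lines of a class the average of the other 5 class means, each with equal weight, so their p-values measure the spread between lines. Line comparisons set a line against the other lines of its class, and their p-values measure only the spread between arrays of a set. A high line lowers the differences of the other lines of its class. Line calls of the same gene within a class are therefore not independent. On most arrays the lowest values stand in identifier order, and the longest such run ends at 3.99. Values up to there may carry no order and are called the floor here. In sorted bulk samples, fewer cells of a type and less RNA per cell cannot be told apart.

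The spread of the members between lines was close to that of all tested genes. The SD over the 22 line means had a median of 0.37 on the log2 scale over the 78 tested members, against 0.42 over all tested genes. It was above 1 in 8 members (10.3%), against 9.0% of all genes. It was below 0.5 in 48, and the median of all tested genes was below that mark too. The 8 with the widest spread were Kcne2 (SD 2.70), Kcna5 (2.03), Kcnmb4 (1.92), Kcnip1 (1.79), Kcnj14 (1.20), Kcnip4 (1.15), Kcnk1 (1.07) and Kcnj13 (1.02). By family, 9 of 13 tested accessory subunits and 5 of 9 silent Kv subunits had an SD above 0.5, whereas none of the 3 Kv7 genes (Kcnq1, Kcnq3 and Kcnq5) did. Of the other families, 4 of 12 2-pore genes, 4 of 10 inward rectifiers, 2 of 6 calcium- or sodium-activated genes, 1 of 8 Kv1 genes and 1 of 6 genes of the EAG, ERG and ELK group passed that mark. The share of all tested genes above 0.5 was not computed, so these small counts are not read as traits of the families. The 4 steadiest tested members were Kcnj4 (SD 0.13), Kcna2 (0.15), Kcnj15 (0.15) and Kcna3 (0.16). The line with the highest mean was 1 of the 9 amacrine lines for 33 members and 1 of the 4 ganglion lines for 18. It was 1 of the 3 photoreceptor lines for 13 and 1 of the 4 bipolar lines for 10. For 3 members it was the microglia line and for 1 the horizontal line. Classes with more lines have more chances to hold the highest. Some leads over the next line were small, such as 0.02 in Kcnc1 and 0.06 in Kcna1. The counts over all tested genes were not computed, so these show no preference of the members.

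**Figure D1:**
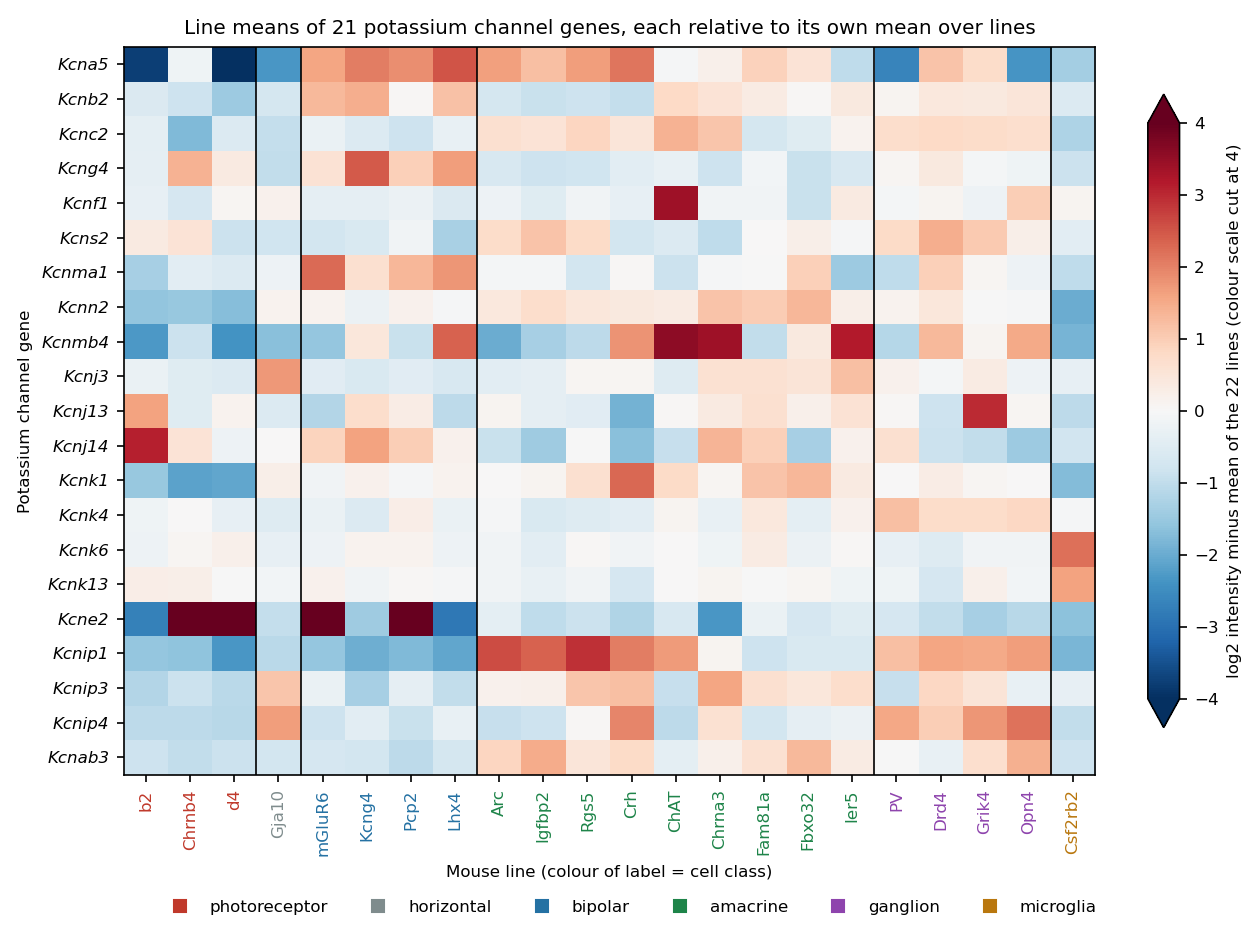
Heat map of 21 potassium channel genes (rows) in the 22 lines (columns, ordered by class); the color is log2 intensity minus that gene's own mean over the 22 lines. Kcne2 stands out in d4, Chrnb4, mGluR6 and Pcp2, Kcna5 in the 4 bipolar lines and Crh, and Kcnk6 and Kcnk13 in Csf2rb2.

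Across classes, 20 calls fell on 15 members. In photoreceptor lines 0 members were called higher and 2 lower, against a background of 2.03% and 4.32% of all tested genes. The horizontal line had 1 higher and 0 lower (background 1.05% and 0.159%), the bipolar lines 4 and 0 (1.52% and 1.15%), the amacrine lines 5 and 0 (1.55% and 1.23%), the ganglion lines 5 and 0 (3.26% and 0.973%) and the microglia line 2 and 1 (5.68% and 3.64%). With 78 members tested, the counts of higher members in bipolar, amacrine and ganglion lines were above their background shares. The horizontal count of 1 was near its share, and the counts in photoreceptor lines and microglia were below theirs. All these counts are small. The median difference of the 78 members was 0.17 in ganglion lines and -0.22 in microglia, against 0.01 and -0.06 over all genes, and between -0.14 and 0.05 in the other 4 classes.

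**Figure D2:**
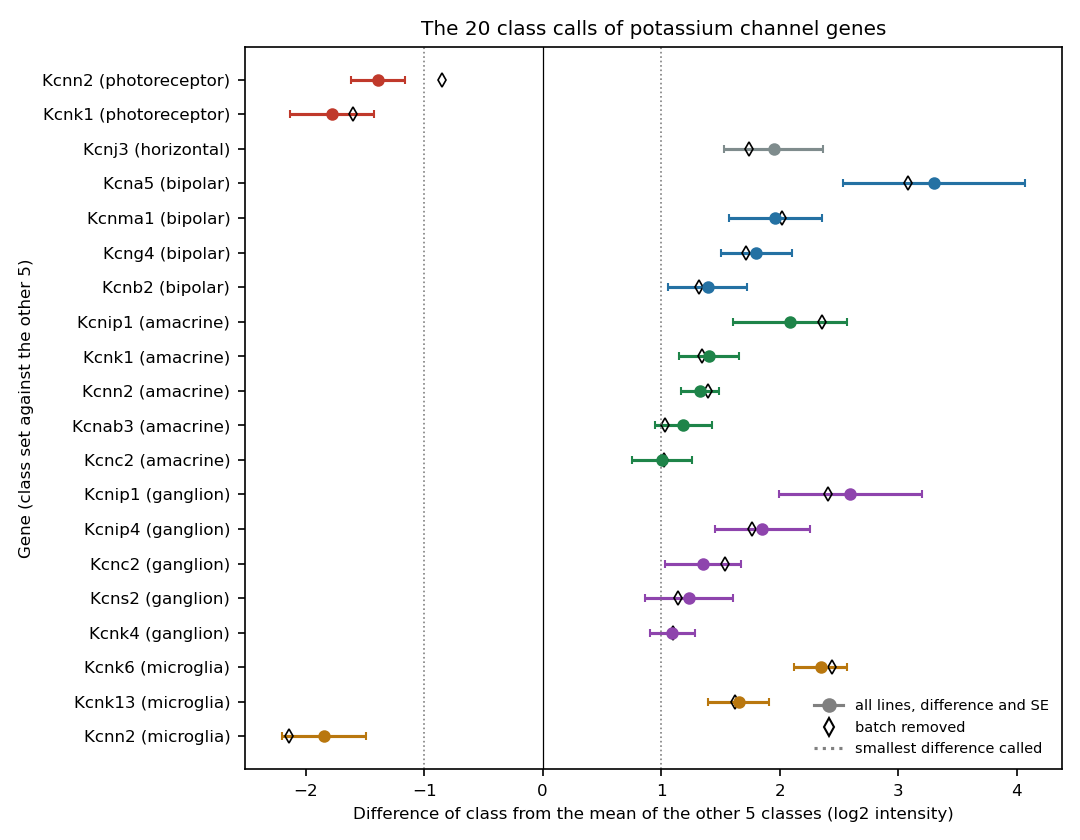
Differences between a class and the mean of the other 5 classes (log2) for the 20 calls of potassium channel genes; filled points and bars are the difference and its SE, open diamonds the difference with batch removed, dotted lines mark 1 and -1. All 20 keep their sign with batch removed; Kcna5 in bipolar lines (3.30) is the largest and Kcnn2 in microglia (-1.84) the lowest.

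Within classes, 94 calls (51 higher and 43 lower) fell on 28 members over the 20 lines compared, and in 32 of these no array of the line overlapped the arrays of the other lines of its class (34.0% of the calls, against 25.4% of 12707 line calls over all tested genes). The 4 genes called in most lines, Kcnmb4 (12 lines), Kcna5 (9), Kcnip1 (8) and Kcne2 (7), made up 36 of the 94. Members called higher and lower numbered 6 and 6 in Crh, where 18.3% of all tested genes were called in either direction, 6 and 2 in ChAT (2.77%), 5 and 3 in Chrna3 (7.87%), 4 and 3 in b2 (10.7%), 2 and 5 in d4 (7.77%), 4 and 3 in Drd4 (6.34%), 2 and 4 in PV (6.05%) and 5 and 1 in Chrnb4 (5.05%). In percentage points, ChAT was the line whose count stood furthest above its background. In Crh, b2 and Pcp2 the share of members called was below the background. The numbers were 2 and 3 in Ier5 (1.85%), 3 and 0 in Grik4 (1.86%), 0 and 3 in Fam81a (1.52%), 2 and 1 in Igfbp2 (1.44%), 2 and 1 in Fbxo32 (0.841%), 2 and 1 in Lhx4 (2.79%) and 1 and 2 in mGluR6 (2.56%). In Kcng4 (0.841%), Pcp2 (2.85%), Arc (1.24%), Rgs5 (0.775%) and Opn4 (0.675%) 1 member was higher and 1 lower. For 46 members (59.0%) neither a class nor a line was called, against 50.5% of all tested genes. Some of these counts moved when a replicate of every set was left out: to between 8 and 18 in Crh, 1 and 8 in Grik4, 2 and 8 in Drd4 and 0 and 4 in Opn4. With batch as a term 1 member was called in PV. Of the 54 class, line and set calls that the naming rule selects, 10, 20 and 14 were lost when replicate 1, 2 or 3 of every set was left out.

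Kcng4 encodes a silent Kv subunit and drives the Cre of the bipolar line that bears its name. In that line its intensity was 99.4, 152 and 112, a mean of 119 against 19.9 over the other 21 lines, a difference of 2.58 (SE 0.30, adjusted p = 2.2e-09). No other line had a higher mean of Kcng4. The cells of this line were sorted by the activity of the Kcng4 driver, so this difference is not independent of how they were chosen. In that comparison with all 21 lines 3 members were called higher and 2 lower, at a background of 2.54%. The other 2 higher members were Kcna5 (489 against 109, difference 2.16, SE 0.34, adjusted p = 7.5e-06) and Kcnb2 (37.3 against 13.1, 1.51, SE 0.30, adjusted p = 0.00057). The 2 lower ones were Kcnip1 (-2.06) and Kcnip3 (-1.40).

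The promoter window of Kcng4 (GRCm38.p6, chr8:119635661-119635930, minus strand, 250 bases before to 20 after the RefSeq start) is shown because it is one of few member promoters with the letters TAATCC, a core to which photoreceptor and bipolar homeodomain factors such as Crx and Otx2 are known to bind. The capitals mark the match, at bases 246 to 251 of the window.
Kcng4: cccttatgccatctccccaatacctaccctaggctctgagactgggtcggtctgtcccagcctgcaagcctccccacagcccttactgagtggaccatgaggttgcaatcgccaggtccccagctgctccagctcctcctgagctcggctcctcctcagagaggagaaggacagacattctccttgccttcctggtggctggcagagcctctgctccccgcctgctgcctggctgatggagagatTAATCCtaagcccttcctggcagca
TAATCC, read on both strands, was found in 2162 of 32851 RefSeq promoter windows of this length (6.58%) and in 3 of the 93 windows of the 68 members matched by symbol (3.23%).

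Kcng4 was higher in bipolar lines as a class, with a mean of 57.7 against 29.6 in photoreceptor, 11 in horizontal, 14.2 in amacrine, 22.4 in ganglion and 11.9 in microglia lines (difference 1.80, SE 0.30, adjusted p = 0.0012). This class includes the line whose cells were sorted by the Kcng4 driver. Leaving out each of the 22 lines in turn, that line included, left the call in place, at differences of 1.46 to 2.08. Beside the Kcng4 line, the arrays of this gene read 49.4, 93.9 and 68.2 in Lhx4, 26.8, 40.9 and 67.2 in Pcp2, and 38.1, 17.4 and 51.4 in mGluR6. The Kcng4 line lay above the other bipolar lines without overlap, by 1.39 (SE 0.33, adjusted p = 0.017), but by 0.80 (adjusted p = 0.32) against Lhx4, the only other bipolar line of batch 3. Among photoreceptors the cone line Chrnb4 was high, at 43.7, 53.7 and 76.5, a line mean of 56.4 against 27.5 in d4 and 16.7 in b2, and was called against both (1.40, SE 0.33, adjusted p = 0.0040). The Chrnb4 call was lost without replicate 1 or replicate 3 (adjusted p = 0.070 and 0.061). Rods of b2 were called lower than the cone lines (-1.24). In batch 1 alone, where Pcp2 is the bipolar line, the bipolar difference of Kcng4 was 0.85 (adjusted p = 1), and in batch 3 alone 2.70 (adjusted p = 0.0037).

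Kcnb2, the Kv2 pore subunit that silent subunits such as Kcng4 join, was also higher in bipolar lines (mean 27.4 against 7.12 in photoreceptor, 12.5 in amacrine and 17.6 in ganglion lines; difference 1.39, SE 0.33, adjusted p = 0.016). It read 12.3, 14.9 and 15.4 in Pcp2, against 46.9, 28.8 and 29.3 in mGluR6, 34.2, 32.4 and 46.9 in Kcng4, and 33.2, 39.6 and 23.4 in Lhx4. Pcp2 thus lay below the other 3 bipolar lines without overlap (-1.27, adjusted p = 0.018), and with batch as a term that difference was -1.09 (adjusted p = 0.60). The Pcp2 call was also lost without any 1 of the 3 replicates (adjusted p of 0.063 to 0.15). In batch 1 alone the bipolar difference of Kcnb2 was 0.24 and in batch 3 alone 1.73 (adjusted p = 1 and 0.0018). The bipolar call was lost when mGluR6, Kcng4 or Lhx4 was left out, with differences of 1.24 to 1.33 and adjusted p of 0.061 to 0.074.

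Kcna5, a delayed rectifier of the Kv1 family, had the largest difference among the 20 class calls. It averaged 470 in bipolar lines (349 in mGluR6 to 674 in Lhx4), against 205 in amacrine, 68.4 in ganglion, 45.3 in microglia, 23.5 in horizontal and 16.5 in photoreceptor lines (3.30, SE 0.77, adjusted p = 0.013). Its bipolar arrays read 360, 368 and 322 in mGluR6, 494, 486 and 487 in Kcng4, 437, 342 and 506 in Pcp2, and 803, 603 and 632 in Lhx4. Amacrine lines reached into that range, with 521 in Crh, 376 in Rgs5 and 366 in Arc, and went down to 58.3 in Ier5. The amacrine (1.87, adjusted p = 0.070) and photoreceptor differences (-2.50, adjusted p = 0.065) were not called. Batch 1 alone gave a bipolar difference of 3.29 (adjusted p = 0.87) and batch 3 alone 2.85 (adjusted p = 0.073), and without Lhx4 it was 3.13 (adjusted p = 0.058).

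Kcna5 also separated lines within classes. The cone line Chrnb4 read 93.9, 84.1 and 141, whereas the cone line d4 read 2.31, 11.2 and 4.89 and the b2 rods 2.71 to 50.7 over 9 arrays. Chrnb4 was higher than both by 3.98 (SE 0.39, adjusted p = 4.8e-11; 3.82 with values raised to the floor). Among ganglion lines Drd4 (517, 208 and 158) and Grik4 (157, 226 and 214) were called higher, by 2.54 and 2.03, and PV (mean 18.9) and Opn4 (55.1, 15.6 and 14.1) lower, by -2.48 and -2.10. Bipolar markers moved with these 4 ganglion lines: their summed intensity was 423.8 in Drd4 and 175.7 in Grik4, and 58.1 in Opn4 and 36.8 in PV. It was 159.9 in Crh, the amacrine line with the highest Kcna5, and 32 to 51 in the other amacrine lines. Other lists moved in the same lines: Müller glia markers summed to 1844.8 in Drd4, 979.1 in Grik4, 256.3 in Opn4, 95.8 in PV and 941.4 in Crh, and endothelial markers to 260.7 in Drd4, 705.6 in Grik4, 39.5 in Opn4 and 24.4 in PV. Among photoreceptors the bipolar marker sum was 135.8 in Chrnb4, 249.3 in d4 and 125.4 in b2, so it was highest in d4, the line with the lowest Kcna5. The part of other cells in these differences was not tested. 

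**Figure D3:**
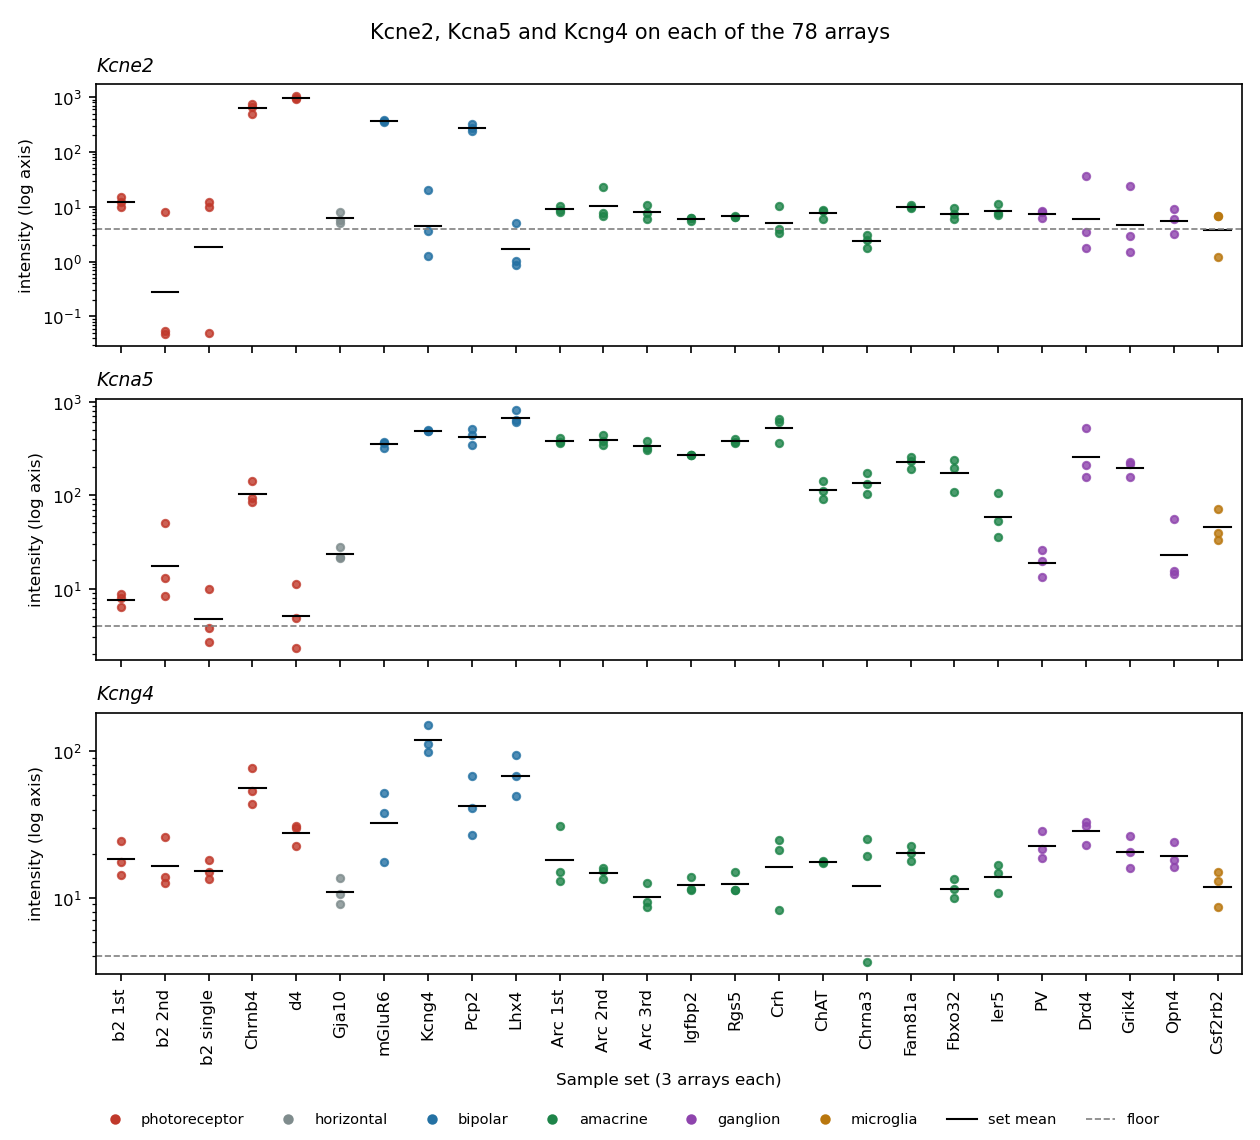
Intensity (log axis) of Kcne2, Kcna5 and Kcng4 on each of the 78 arrays, by set and colored by class; the bar is the set mean and the dashed line the floor of 3.99. Kcne2 lies between 242 and 1031 on the 12 arrays of d4, Chrnb4, mGluR6 and Pcp2 and at 36.6 or lower on all others.

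Among other Kv pore subunits, Kcnc2, a Kv3 subunit of fast-spiking neurons, was higher in ganglion lines, with a mean of 25.5 (24.3 to 26.9 over the 4 lines; 1.35, SE 0.32, adjusted p = 0.011). It was higher in amacrine lines too, with a mean of 20.9 (1.01, SE 0.25, adjusted p = 0.016), against 8.2 in photoreceptor, 11 in bipolar, 7.96 in horizontal and 6.57 in microglia lines. The amacrine range ran from 9.52 in Fam81a to 40 in ChAT, the starburst line, whose arrays read 40.2, 39.3 and 40.4. In ganglion lines batch 1 alone gave 1.27 and batch 3 alone 1.26 (adjusted p = 0.54 and 0.01), and in amacrine lines 0.77 and 0.97 (adjusted p = 0.75 and 0.016), so that both calls were lost in batch 1 and the amacrine call in batch 3. The amacrine difference stood at the threshold of 1, and leaving out any of 9 lines in turn took it to between 0.85 and 1.00. In Chrnb4 cones Kcnc2 was called lower than in the other photoreceptor lines (-1.30), but not with batch as a term (-0.99, adjusted p = 0.10).

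Kcnd2, the Kv4 subunit of A-type currents, set ganglion lines apart from each other. It read 29.6, 50.9 and 71.9 in PV, above every array of the other ganglion lines (1.99, SE 0.39, adjusted p = 0.00039), and 2.82, 6.38 and 6.42 in Drd4, below every one (-2.40, SE 0.39, adjusted p = 2.7e-05). Grik4 and Opn4 arrays lay between, from 13.9 to 27.2. PV is the only ganglion line of batch 1, and with batch as a term its difference was 2.04 (adjusted p = 0.16). Kcnh7, an ERG channel subunit, read 20.9, 20 and 20 in the amacrine line Fbxo32, above the arrays of all other amacrine lines (1.49, SE 0.19, adjusted p = 1.3e-07).

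Kcnf1, another silent subunit, was called in ChAT alone among the 20 lines. It read 102, 89.4 and 89.2 in ChAT starburst cells, a mean of 93.4 against 7.40 over the other 8 amacrine lines, whose arrays ran from 3.61 to 23.5 (3.66, SE 0.33, adjusted p = 4.4e-13). The difference was 3.55 with batch as a term and 3.36 against the amacrine lines of the same batch. Its gap of 2.41 between the highest and the next line was the widest of any member, and a gap above 1 was found in 6 members (7.69%), against 6.54% of all genes. Kcns3 was higher in PV than in the other ganglion lines (23.1, 26.8 and 27.1; 1.70), a call lost with batch as a term (1.29, adjusted p = 0.41). Kcns3 was higher also in b2 rods than in cones (mean 47.6 against 20.3; 1.23). Kcns2 was higher in ganglion lines (mean 33.7, from 21.5 in Opn4 to 50.6 in Drd4; 1.23, SE 0.37, adjusted p = 0.042), but not with batch removed (1.15, adjusted p = 0.064). Batch 1 alone gave Kcns2 a difference of 0.67 and batch 3 alone 1.32, and 9 lines each ended the call when left out. Kcnv2, a silent subunit known from photoreceptor inner segments, was above every other line in b2 (20.8), d4 (18.9) and Chrnb4 (16.8), with 13.9 in the next line, Csf2rb2. Its difference of 0.90 (SE 0.15, adjusted p = 0.00081) was under the size of 1 used for calls.

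Kcnma1, the pore of the BK channel, which opens with calcium and voltage together, was higher in bipolar lines. It read 125, 155 and 108 in mGluR6, 37.7, 30.7 and 60.3 in Kcng4, 46.6, 70.3 and 92.1 in Pcp2, and 97, 90.7 and 87 in Lhx4. The class mean was 75.4, and the lines of other classes lay between 9.64 in Ier5 and 51.9 in Fbxo32 (1.96, SE 0.39, adjusted p = 0.0047). Only the Kcng4 line, at 41.2, lay within the range of the other classes. Within batch 1 the bipolar difference was 2.20 (adjusted p = 0.52) and within batch 3 1.49 (adjusted p = 0.074). Kcnma1 has a second, dimmer probe set, and with the mean of both the difference was 0.92 (adjusted p = 0.019). Within classes it was higher in Fbxo32 (1.36) and in Drd4 (1.33) and lower in Ier5 (-1.37) and PV (-1.28). With the mean of both probe sets Ier5 was at -0.47 and PV at -0.59 (adjusted p = 0.23 and 0.086), and with batch as a term at -1.02 and -0.97 (adjusted p = 0.27 and 0.58). The PV call was lost without any 1 of the 3 replicates, and the Ier5 call without replicate 3 (-1.21, adjusted p = 0.22).

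Kcnn2, an SK channel that calcium opens without voltage, had the largest number of class calls. It was lower in photoreceptor lines, at a mean of 10.4 (9.63 to 11), and in microglia, at 5.62, 7.1 and 12.6. All other lines were between 26.4 and 78.5: 34.5 in the horizontal line, 31.4 on average in bipolar, 49.8 in amacrine and 34.1 in ganglion lines. The differences were -1.39 in photoreceptors (SE 0.23, adjusted p = 0.00058), -1.84 in microglia (SE 0.36, adjusted p = 0.0011) and 1.33 in amacrine lines (SE 0.16, adjusted p = 2.9e-05). With batch removed the photoreceptor difference was -0.85 (adjusted p = 0.18) and in batch 1 alone -1.67 (adjusted p = 0.075). In amacrine lines the difference was 0.74 in batch 1 alone and 1.05 in batch 3 alone (adjusted p = 0.56 and 0.017), and the microglia difference -2.15 in batch 3 alone.

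Kcnmb4, the neuronal BK beta subunit that slows the channel's opening, was called in more lines than any other member and in no class. Among amacrine lines it read 605, 605 and 393 in ChAT, 624, 508 and 306 in Chrna3 and 254, 499 and 486 in Ier5, with 103, 201 and 171 in Crh. The other 5 amacrine lines had means from 11.1 in Arc to 57.9 in Fbxo32. The differences from the other amacrine lines were 3.15 (SE 0.44, adjusted p = 3.4e-07) in ChAT, 2.93 in Chrna3, 2.69 in Ier5 and 1.14 in Crh, and -3.10 in Arc, -2.37 in Igfbp2, -2.03 in Rgs5 and -1.98 in Fam81a. The bipolar line Lhx4 (446, 164 and 164) lay above the other bipolar arrays (3.02, SE 0.48, adjusted p = 2.3e-05), with 60.7 in Kcng4, 24.1 in Pcp2 and 15.1 in mGluR6. Against Kcng4, of the same batch, Lhx4 was higher by 1.91 (adjusted p = 0.13). Ganglion lines ranged from 20 in PV to 126 in Opn4, and the means of b2 and d4 were 9.07 and 8.5.

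Kcnmb4os2, an opposite-strand transcript that starts 360 bases from Kcnmb4, was high in many of the same lines. It read 28.6, 48.3 and 59.9 in ChAT and averaged 35.4 in Chrna3, 20.4 in Lhx4, 19.4 in Ier5, 17.2 in Crh, 16.8 in Drd4 and 14.2 in Opn4, with 7.24 to 11.1 in the other lines. It was called higher in ChAT (1.86), Chrna3 (1.52) and Lhx4 (1.18). Over the 22 line means the 2 genes correlated at r = 0.93 (rho = 0.90), and at r = 0.93 without ChAT and Chrna3, the lines farthest out. Kcnmb4os1, another opposite-strand gene, correlated with Kcnmb4 at r = 0.38 (rho = 0.39). All points share the arrays and their normalization. The positions of the probes were not used here, so signal of a shared stretch and signal of separate transcripts cannot be told apart.

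Both promoter windows are shown, since the starts face each other on opposite strands: Kcnmb4 at chr10:116473504-116473773 (minus strand) and Kcnmb4os2 at chr10:116472913-116473182 (plus strand; RefSeq, GRCm38.p6). Capitals mark GGGCGG on either strand, the core of the GC box that Sp1 is known to bind.
Kcnmb4: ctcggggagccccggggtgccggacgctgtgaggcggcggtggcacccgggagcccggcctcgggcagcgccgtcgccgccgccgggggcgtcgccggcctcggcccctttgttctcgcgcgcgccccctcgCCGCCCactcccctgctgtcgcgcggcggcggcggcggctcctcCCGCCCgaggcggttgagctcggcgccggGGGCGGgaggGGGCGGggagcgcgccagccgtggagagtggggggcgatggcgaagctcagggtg
Kcnmb4os2: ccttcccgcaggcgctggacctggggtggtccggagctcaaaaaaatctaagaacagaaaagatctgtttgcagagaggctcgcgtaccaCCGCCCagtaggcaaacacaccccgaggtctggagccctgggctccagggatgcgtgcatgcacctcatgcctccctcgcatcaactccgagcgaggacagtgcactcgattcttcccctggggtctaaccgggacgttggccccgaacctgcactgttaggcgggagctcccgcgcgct
The Kcnmb4 window holds 4 matches and the Kcnmb4os2 window 1. GGGCGG was found in 34.1% of the 32851 promoter windows and in 42 of the 93 member windows (45.2%).

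**Figure D4:**
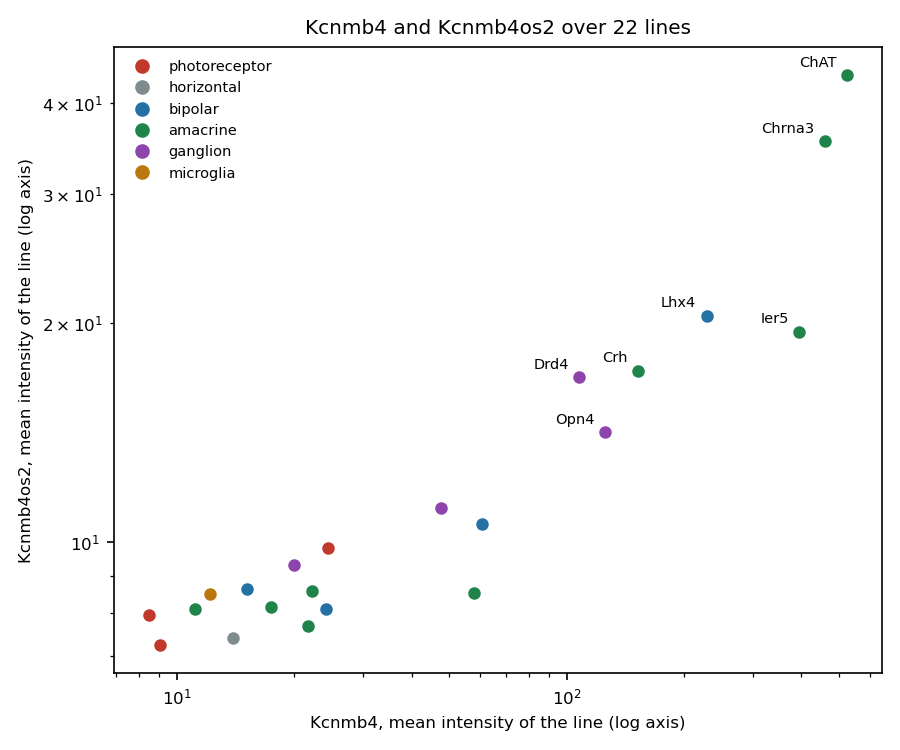
Kcnmb4os2 against Kcnmb4 intensity (both log axes), 1 point for the mean of each of the 22 lines, colored by class. ChAT and Chrna3 lie highest on both axes (524 and 459 for Kcnmb4), and the points fall along one rising band (r = 0.93).

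Among inward rectifiers, Kcnj3, a subunit of the G-protein-gated channel, was higher in the horizontal line (33.8, 36.8 and 35.6; 1.95, SE 0.42, adjusted p = 0.018). The next line was Ier5 at 24.2 (20.2, 12.4 and 56.8), and the others lay between 6.79 and 16.2. The difference was 2.00 in batch 3 alone (adjusted p = 0.0075), and 1.74 with batch removed (adjusted p = 0.22). The horizontal and microglia classes hold 1 line each, so the SE and p of their differences take the spread between lines from the other classes. Kcnj9, of the same channel family, was higher in bipolar lines by 0.86 (adjusted p = 0.025), below the size needed for a call.

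Kcnj14, a Kir2 family rectifier, marked the b2 rods. It read 67.8, 64.5 and 59 in the first b2 set, 39.7, 210 and 76.2 in the second and 73.2, 71.8 and 51.4 in the unnumbered set, against 20.3, 9.24 and 9.26 in Chrnb4 cones and 5.79, 7.67 and 8.5 in d4 cones. No array overlapped (2.92, SE 0.54, adjusted p = 2.9e-05). The next line, Kcng4, lay 1.49 below b2. With batch as a term the rod difference was 2.15 (adjusted p = 0.054), and against Chrnb4, of the same batch, 2.40 (adjusted p = 0.015). 

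Kcnj13, the rectifier of the pigment epithelium's apical membrane, was higher in Grik4 than in the other ganglion lines (22.3, 381 and 89.7; 3.22, SE 0.71, adjusted p = 0.0029), and this rested on single arrays: without replicate 2 the difference was 2.02 and without replicate 3 3.18 (adjusted p = 0.52 and 0.082). The other 21 lines had means between 3.1 and 35.2. Grik4 also had the highest sum of pigment epithelium markers, 878 (Ttr 654, Rgr 129, Rpe65 75.3), against 179.3 in Drd4, 82.6 in Opn4 and 29 to 48 in the other lines. The part of pigment epithelium RNA in the Grik4 value was not tested.

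The 2-pore channels, which carry leak current, gave 5 of the 20 class calls. Kcnk1, a TWIK channel, was lower in photoreceptor lines, at a mean of 9.53 (8.19 in Chrnb4 to 12.4 in b2; -1.78, SE 0.35, adjusted p = 0.0031), and higher in amacrine lines, at 59.9 (35.8 in Arc to 175 in Crh; 1.40, SE 0.25, adjusted p = 0.0012). Means were 42 in horizontal, 36.4 in bipolar, 38.2 in ganglion and 10.7 in microglia lines. Crh, at 135, 206 and 193, lay above all other amacrine arrays (1.74, SE 0.35, adjusted p = 6.7e-05). The photoreceptor difference was -1.60 with batch removed and -1.95 in batch 1 alone (adjusted p = 0.032 and 0.077). For the amacrine difference, batch 1 alone gave 1.14 and batch 3 alone 1.09 (adjusted p = 0.43 and 0.23).

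Kcnk4 (TRAAK), which opens with membrane stretch, was higher in ganglion lines. It read 56, 29.8 and 36 in PV, 27.6, 29.3 and 27.6 in Drd4, 20.6, 80 and 13.8 in Grik4 and 25.5, 33.5 and 32.6 in Opn4, against line means of 11.2 to 22.9 elsewhere (1.10, SE 0.19, adjusted p = 0.00099). All 4 line means lay above all lines of the other classes, although 2 of the 3 Grik4 arrays reached into their range. Batch 1 alone gave 1.04 (adjusted p = 0.17) and batch 3 alone 1.12 (adjusted p = 0.0076), and without PV the difference was 0.99 (adjusted p = 0.0055).

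Kcnk6, a TWIK family member, and Kcnk13, the THIK channel known for the resting current of microglia, were both higher in the microglia line, a class of 1 line whose SE comes from the spread of the others. Kcnk6 read 30.2, 75.5 and 37.7 in Csf2rb2, with means of 6.68 to 12.1 in all other lines (2.35, SE 0.22, adjusted p = 2e-07). Kcnk13 read 25, 38.3 and 28.9, with 6.21 to 11.9 elsewhere (1.66, SE 0.26, adjusted p = 0.00011). In neither gene did another line's mean come near the microglia arrays. Against the lines of batch 3 alone the differences were 2.41 and 1.78.

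**Figure D5:**
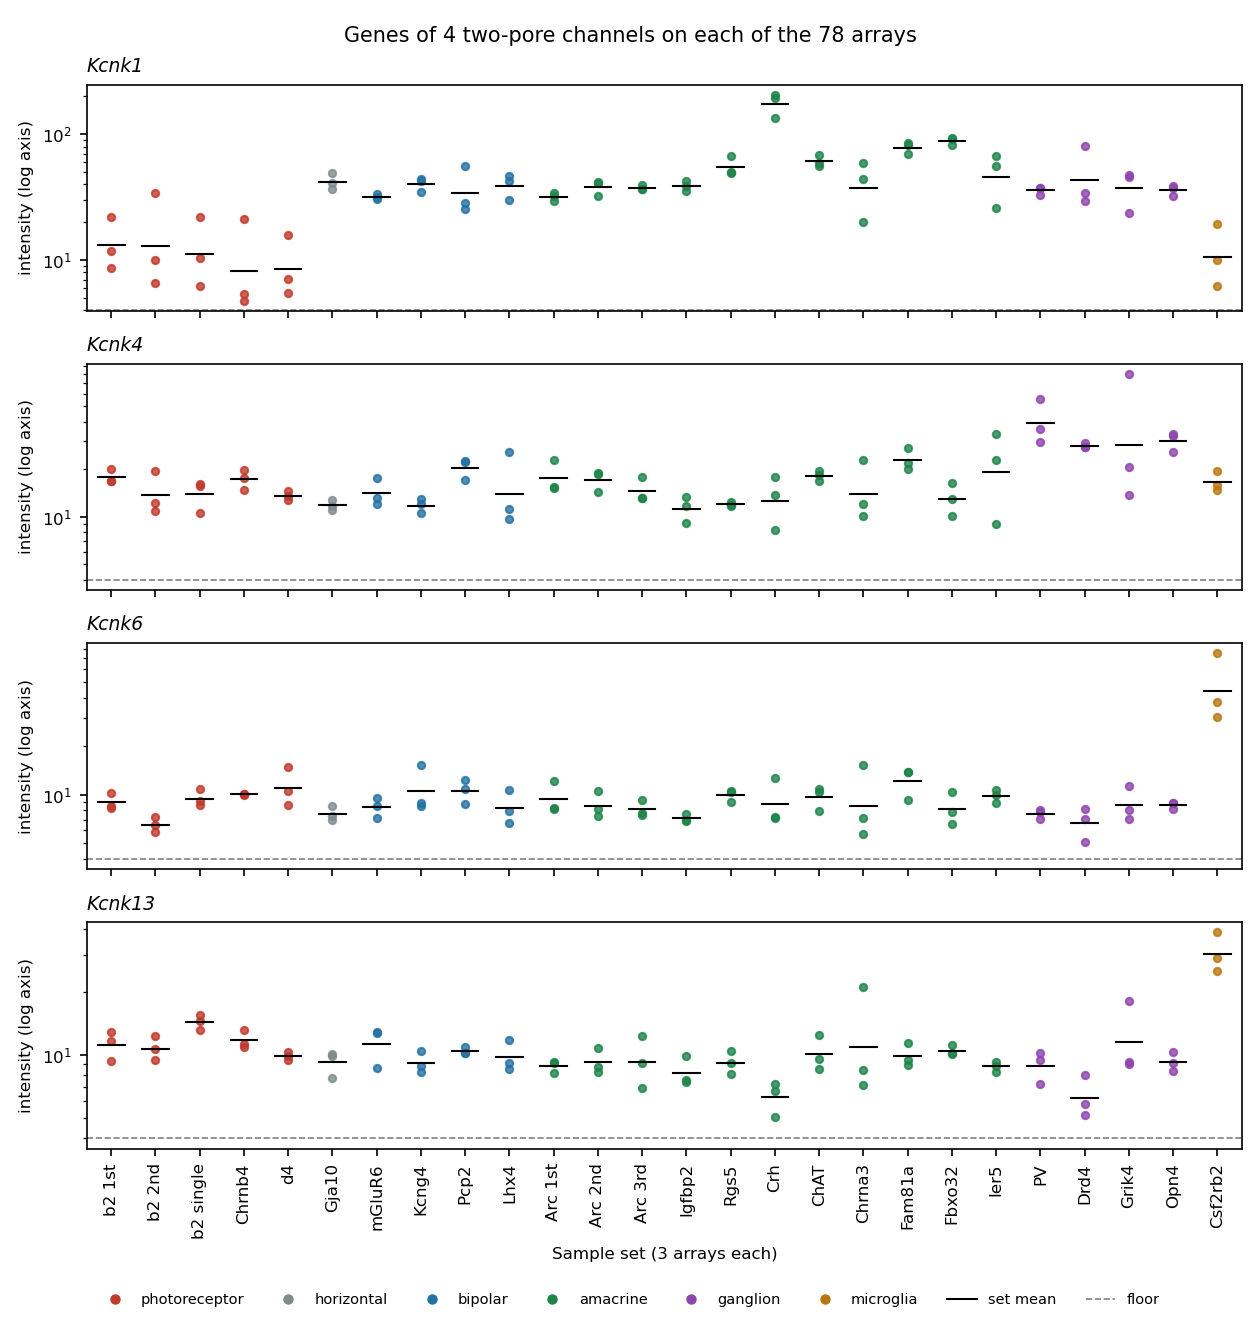
Intensity (log axis) of Kcnk1, Kcnk4, Kcnk6 and Kcnk13 on each of the 78 arrays, by set and colored by class; the bar is the set mean and the dashed line the floor of 3.99. Kcnk1 is low in photoreceptor sets and microglia and highest in Crh, and Kcnk6 and Kcnk13 are highest in Csf2rb2.

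Among accessory subunits Kcne2, a single-pass subunit that modifies several Kv channels, had the widest spread of any member. In b2 rods it read 15.2, 12.4 and 9.99 in the first set, 0.0479, 0.0547 and 8.07 in the second and 12, 9.94 and 0.0499 in the unnumbered set, against 934, 1031 and 969 in d4 cones and 752, 498 and 661 in Chrnb4 cones. It was high in 2 bipolar lines as well, at 361, 377 and 354 in mGluR6 and 277, 242 and 323 in Pcp2, and low in the other 2, at 20.3, 3.56 and 1.24 in Kcng4 and 5, 1.04 and 0.879 in Lhx4. The means of all remaining lines were 9.99 or lower. Kcne2 thus split the photoreceptors into cones and rods and the bipolar lines into 2 pairs. Of the high bipolar pair mGluR6 lies in batch 2 and Pcp2 in batch 1, whereas Kcng4 and Lhx4 both lie in batch 3. Line and batch therefore cannot be told apart in the bipolar split.

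In b2 rods Kcne2 was lower than in the cone lines by 6.64 with values raised to the floor, a lower bound on the size, since 3 of 9 b2 arrays lay far below the floor (-8.74, SE 0.76, adjusted p = 5.8e-14 as deposited). Within the bipolar class mGluR6 was higher by 4.83 (SE 0.96, adjusted p = 0.00083) and Pcp2 by 4.32 (SE 0.96, adjusted p = 0.0033), at least 4.17 and 3.66 with the floor. Without replicate 2 the mGluR6 difference was 4.61 (adjusted p = 0.094). With batch as a term the mGluR6 difference was 6.15 (adjusted p = 0.011). In Pcp2 0 members were called with that term, so its Kcne2 call was lost. Leaving out a replicate of every set left 0 to 1 members called in Pcp2, and its Kcne2 call was lost where 0 remained. As a class neither photoreceptors (3.76, SE 1.52, adjusted p = 0.12) nor bipolar lines (1.58, adjusted p = 0.67) were called. With values raised to the floor the photoreceptor difference was 4.17 (adjusted p = 0.029). The 4 cone markers summed to 96.4 in mGluR6 and 26.7 in Pcp2, nearly all of it Gnat2 (95.6 and 26.5), whereas Opn1sw, Opn1mw and Arr3 were each at 0.346 or lower in both. The sum was 358 in Lhx4 and 510 in Chrna3, where Kcne2 was 1.66 and 2.38, and 9632.4 in Chrnb4 and 10705.2 in d4. The part of cone RNA in the Kcne2 values of the bipolar lines was not tested.

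The promoters of Kcne2 and Kcna5, the members with the widest spread over lines, are shown for comparison with that of Kcng4. Kcne2 has 2 RefSeq starts, with windows at chr16:92292139-92292408 and chr16:92295366-92295635 (plus strand), and Kcna5 has 1 at chr6:126535536-126535805 (minus strand; GRCm38.p6). No TAATCC was found on either strand of the 3 windows, so that none has capitals.
Kcne2 first start: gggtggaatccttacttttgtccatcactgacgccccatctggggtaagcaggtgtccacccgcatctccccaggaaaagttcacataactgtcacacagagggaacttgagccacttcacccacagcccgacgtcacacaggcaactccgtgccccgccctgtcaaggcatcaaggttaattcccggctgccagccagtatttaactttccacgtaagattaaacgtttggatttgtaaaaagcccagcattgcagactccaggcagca
Kcne2 second start: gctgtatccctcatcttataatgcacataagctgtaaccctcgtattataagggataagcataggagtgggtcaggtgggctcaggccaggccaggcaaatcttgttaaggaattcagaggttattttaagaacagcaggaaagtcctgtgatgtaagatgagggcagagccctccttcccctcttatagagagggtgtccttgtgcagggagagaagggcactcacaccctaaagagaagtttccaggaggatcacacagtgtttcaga
Kcna5: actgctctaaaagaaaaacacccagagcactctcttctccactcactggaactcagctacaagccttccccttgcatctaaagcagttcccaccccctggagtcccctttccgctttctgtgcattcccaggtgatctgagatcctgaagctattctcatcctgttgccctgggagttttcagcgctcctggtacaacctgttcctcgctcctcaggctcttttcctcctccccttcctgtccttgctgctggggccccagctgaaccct

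Kcnip1, one of the calcium-binding partners of Kv4 channels, was higher in amacrine (2.09, SE 0.48, adjusted p = 0.0091) and ganglion lines (2.60, SE 0.61, adjusted p = 0.01). The 4 ganglion lines were alike, at 38.5 to 53.3, whereas amacrine lines fell into a high and a low range: 125 in Rgs5, 101 in Arc, 84.7 in Igfbp2, 69.1 in Crh and 53.8 in ChAT, and 17.8 in Chrna3, 10.9 in Fbxo32, 10.9 in Ier5 and 9.38 in Fam81a. The other classes had means of 4.64 to 7.93. Within the amacrine class Rgs5 (2.06), Arc (1.71), Igfbp2 (1.43) and Crh (1.10) were called higher and Fam81a (-2.14), Fbxo32 (-1.89), Ier5 (-1.89) and Chrna3 (-1.10) lower. Batch 1 alone gave a difference of 1.40 and 2.08 in amacrine and ganglion lines (adjusted p = 0.73 and 0.56), and batch 3 alone 3.40 and 2.18 (adjusted p = 0.00027 and 0.0024).

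Kcnip4, a second Kv4 partner, was higher in ganglion lines, with a mean of 44 (28.1 in Drd4 to 64.5 in Opn4; 1.85, SE 0.40, adjusted p = 0.0061). The horizontal line was as high (49.9, 39.5 and 47.3; 1.91, adjusted p = 0.31, not called), as was the amacrine line Crh (42, 47.9 and 87.4), which lay above every other amacrine array (2.40, SE 0.23, adjusted p = 8.1e-12). The other amacrine lines were at 22 or lower, photoreceptor lines averaged 6.8 and bipolar lines 9.39. In batch 1 alone the ganglion difference was 2.44 (adjusted p = 0.041) and in batch 3 alone 1.53 (adjusted p = 0.18). Kcnip2 was higher in Grik4 (14.7, 22.5 and 16.7; 1.44, SE 0.16) and in Crh (17.1, 18 and 17.1; 1.43, SE 0.15), each above all arrays of its class. Kcnip3 was lower in ChAT (7.23, 7.69 and 8.4; -1.70, SE 0.27, adjusted p = 6.5e-06) than in any other amacrine line.

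Kcnab3, a beta subunit of Kv1 channels, was higher in amacrine lines, with a mean of 30 (14.7 in ChAT to 54.2 in Igfbp2; 1.19, SE 0.24, adjusted p = 0.0031). Ganglion lines averaged 26.4 and reached 51.6 in Opn4 (42, 59.8 and 54.6), which lay above the other ganglion arrays (1.29, SE 0.25, adjusted p = 0.0013), and the other classes had means of 10.5 to 11.7. The Opn4 call was lost without replicate 2 (1.35, adjusted p = 0.060) or replicate 3 (1.11, adjusted p = 0.22). The amacrine difference was 1.07 in batch 1 alone and 1.27 in batch 3 alone (adjusted p = 0.44 and 0.07). Kcnab1, of the same subunit family, was higher in Igfbp2 (166, 112 and 76.4; 1.70, SE 0.32) than in the other amacrine lines.

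The repeated sets of b2 and Arc show how far a line differed from itself. Between the 3 Arc sets 0 members were called in any pair, where 0.053%, 0.457% and 0.0728% of all genes were. Between b2 sets the background was 2.08% for the second against the first, 1.19% for the unnumbered against the first and 2.03% for the unnumbered against the second. Kcne2 was lower in the second than in the first set (-5.48, SE 1.18, adjusted p = 0.0045), but 2 of the 3 arrays of the second set lie under the floor, and with values raised to it the difference was -1.29 (adjusted p = 0.20). Kcna5 was lower in the unnumbered than in the second set (4.69 against 17.6; -1.91, SE 0.47, adjusted p = 0.014), a value that ran from -2.99 to -0.75 when a replicate was left out.

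Of the 23 partner genes of potassium channels whose symbols do not begin with Kcn, 23 were tested. In ganglion lines 3 were called higher, at a background of 3.26% of all tested genes: Lgi1, a secreted partner of Kv1 complexes (3.37, SE 0.29, adjusted p = 5.2e-07), Dpp10, a Kv4 partner (1.11), and Rgs7, a regulator of G-protein signals (1.02). In photoreceptor lines, where 4.32% of all tested genes were called lower, Lgi1 (-1.02; -0.82 and adjusted p = 0.077 with values raised to the floor) and Rgs7 (-1.17) were lower. In the other 4 classes 0 partner genes were called. The partner list was chosen with earlier results of these data known, so these counts do not measure enrichment.

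Dim members were not tested: Kcne1, Kcne3, Kcnh8, Kcnj1, Kcnj16, Kcnj2, Kcnk5, Kcnk9, Kcnmb1, Kcns1, Kcnt2 and Kcnu1, 12 in all, whose highest line mean was 8.97.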

How the data were processed

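Each array was an Affymetrix Mouse Gene 1.0 ST array. The authors deposited 1 linear intensity per probe set and array, made with RMA in the oligo package (R 2.11.1, mouse build mm9) per the submitters' processing notes, with settings not given in the sources used here. All 78 columns share the same sorted values (largest difference 0.0). All fits used log2 of the deposited intensity. Precision is limited by the number of arrays. Of 22347 probe sets, 19446 carry 1 gene symbol, 735 several and 2166 are not listed in the probe table; only the first kind was used, at the highest-mean probe set of each gene. A gene was tested where at least 1 of the 26 set means was above 9.01, the median of all values (15102 of 19301 genes). On 70 arrays the lowest values form a run of 10 or more in identifier order; the longest ends at 3.99, taken as the floor (10.5% of values), and differences were also computed with values raised to it.

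The fits were run over all tested genes in limma 3.58.1 under R 4.3.3, with a trend in the prior variance and Benjamini-Hochberg adjustment: classes on the 22 line means, lines and sets on all 78 arrays. The batch term was estimated from the b2 and Arc sets alone, left out d4 and Fbxo32, which have no batch label, and took Arc 2nd as batch 2. Residuals of equal replicate numbers correlated at a mean of 0.000207 across sets, so numbers were not used as pairs. The fits were tested on simulated data on 15102 genes: of 50 genes changed by 2 log2 units, 94% were called in the bipolar comparison, 92% in the ganglion and 78% in the microglia comparison, and 80% in that of the Kcng4 line; at 1 log2 unit 40% were called in the bipolar, 30% in the ganglion, 20% in the microglia and 16% in the Kcng4 line comparison. Alternatives covered the filter, normalization, floor, probe set choice, prior trend, replicate block, batch, and each replicate and line left out.

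Members, families, partner and marker lists were chosen with earlier results of these data known. Named members are the markers Kcng4, Kcne2 and Kcna5, those called in a class, those called in a line without overlap of arrays (at most 4 per direction), those called between repeated sets, the 12 with the highest mean, the 15 with the largest SD over lines, the leading member of a family and the dim members. Other called members, steady members, Kcnv2, Kcnj9, Kcnmb4os1 and Kcnmb4os2 were added after their values were seen. Promoter windows are from RefSeq (GRCm38.p6), matched by symbol. Figures were drawn with matplotlib 3.10.9.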

Additional observations from a re-analysis of the deposited data

Results flagged for a closer look

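Among the 9 amacrine lines, Kcne2 was lowest in Chrna3, at a line mean of 2.38 (3.04, 1.77 and 2.52 on its arrays), with Crh next at 5.14. The gap between these lines was 0.54 of the range of the amacrine lines on the log2 scale, wider than the 95% limit for a single outlier among 9 values. The 3 Chrna3 arrays lie below the floor of 3.99, where values may carry no order. Of 21 groups examined in this way 1 stood out, and chance alone would give about 1 in 20.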

How the results depend on the processing

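The normalization (equal medians), the fit without a prior trend and the replicate block ended none of the calls that the naming rule selects. With the replicate block 34 of 34 of these line and set results kept their side of the threshold and the lines' total was 93, against 94; between repeated sets it gave 3 members, against 2. With batch as a term the lines' total was 59, and without a replicate 62 to 83. Photoreceptor calls (2) were 4 with the stricter filter, 4 with the floor, 1 with batch removed and 0 in batch 1 alone, 2 to 5 without a replicate and 2 to 5 without a line (4 without ChAT or PV, 5 without Csf2rb2). The horizontal call (1) became 0 with batch removed, 0 to 1 without a replicate, and 2 without the 3 lines of low array correlation or without Crh. Bipolar calls (4) were 0 in batch 1 alone and 2 to 4 without a line (2 without Lhx4). Amacrine calls (5) were 0 in batch 1 alone and 2 in batch 3 alone. Ganglion calls (5) were 1 in batch 1 alone, 3 in batch 3 alone and 3 to 7 without a replicate. Microglia calls (3) were 5 in batch 3 alone and 5 without the lines of low array correlation. Set calls (2) were 1 with the floor and 0 to 4 without a replicate. Batch 1 alone holds 8 lines, so fewer lines enter each class there. The cause of the changes, those in batch 1 included, was not tested. Kcng4 in its own line against the other 21 lines kept its call under the alternatives run for it, none of which concerned batch, at 2.36 to 2.74 without a replicate. Within the bipolar class that line lost its Kcng4 call without replicate 1 (1.38, adjusted p = 0.34), without replicate 2 (1.14, adjusted p = 0.26) and against Lhx4 of the same batch (0.80). Of the single results, batch removed ended 3 of 20, batch as a term 11 of 27, cyclic loess 3 of 54 and the mean of all probe sets 3 of 54. No result changed sign.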
